A study of Mus musculus with 6 samples.

Results

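Cytosolic nucleic acid sensors are proteins inside the cell that bind RNA or DNA of viral or cellular origin. The genes followed here are 8, chosen by name from the 55023 genes of the deposited count table with earlier results of these data known. Counts of these genes beside the share of all genes are therefore descriptive. All 8 were in the table and passed the filter on low counts that left 18812 genes for testing. They are Ifih1, Ddx58, Dhx58, Mavs, Zbp1, Eif2ak2, Ifi203 and Ifi204. RNA was sequenced from mouse bone marrow-derived macrophages, a primary culture obtained by differentiating marrow cells. The 3 groups of 2 libraries each were treated for 24 h: LCL161 together with LTα1β2, LTα1β2 alone, and vehicle. LTα1β2, a lymphotoxin heterotrimer, is the ligand of the lymphotoxin beta receptor. LCL161 mimics SMAC and blocks cellular inhibitor of apoptosis proteins. The effect of LCL161 was measured only on top of LTα1β2, since no libraries had it by itself. The sources used here do not state the strain, sex or age of the mice, or whether the 2 libraries of a group came from separate animals or cultures. The p-values therefore reflect how far these particular libraries differ, and that spread may be technical.

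Ddx58 encodes RIG-I and Ifih1 encodes MDA5, a pair of helicases that recognise double-stranded RNA in the cytosol. Both pass the signal through caspase recruitment domains to Mavs, an adaptor on mitochondria that leads to activation of the kinases TBK1 and IKKε, of NF-kB and of interferon genes. Dhx58 encodes LGP2, a relative that lacks these signalling domains and modulates the other two. Zbp1 senses Z-form nucleic acid and can engage the kinase RIPK3 to start necroptosis. Eif2ak2 encodes PKR, which binds double-stranded RNA and phosphorylates the translation factor eIF2α. Ifi203 and Ifi204 belong to the mouse PYHIN family, whose members include binders of DNA. In macrophages most of these genes are known to be interferon-inducible, while Mavs is known to be expressed without stimulation.

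Promoter windows from RefSeq (GRCm38.p6, 250 bases before to 50 after a start site) were held for 5 of the 8 genes, in 6 windows. There was no window for Dhx58, Zbp1 or Ifi204. Of the 5, only Mavs did not pass in any comparison. Most members were already known to be interferon-inducible, and whether the matches bear on the changes seen here was not tested. The interferon-stimulated response element was searched on both strands as GAAA, any 2 bases and GAAA again. It was present near a start site of Ifih1, Ddx58, Eif2ak2 and Ifi203 and not found in the window of Mavs, against 3.99% of 27025 genes with a window. In the 30-base stretches below, read 5′ to 3′ along the gene, capitals mark the match.
Ifih1, chr2:62646206-62646235, minus strand: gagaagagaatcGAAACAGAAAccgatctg
Ddx58, chr4:40239804-40239833, minus strand: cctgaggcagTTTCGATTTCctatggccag
Eif2ak2, chr17:78882535-78882564, minus strand: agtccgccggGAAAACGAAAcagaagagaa
Ifi203, chr1:173942508-173942537, minus strand: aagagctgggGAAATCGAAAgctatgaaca
Counted from the RefSeq start site as 1, the match began at position 33 in Ifih1, 3 in Ddx58 (where it reads on the opposite strand), 19 in Eif2ak2 and -35 in Ifi203, for which 1 of the 2 listed start sites had it. The form with a 1-base spacer, GAAANGAAA, was found once, in Ddx58 at position -60, and occurs in 3.7% of genes. The gamma-activated site, TTCNNNGAA, was found once, in Eif2ak2 at position -178, and occurs in 9.55% of genes. The NF-kB pattern, GGGA, any 2 bases and TTCC, was found in none of the 6 windows and occurs in 1.63% of genes. These are matches of letters only, and no binding was measured.

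The 250 bases before the start site are given for 3 of the genes as a contrast in base composition: Ddx58 and the Ifi203 start site with the match, both with motif matches in capitals, and Mavs, with none.
Ddx58, chr4:40239826-40240075, minus strand: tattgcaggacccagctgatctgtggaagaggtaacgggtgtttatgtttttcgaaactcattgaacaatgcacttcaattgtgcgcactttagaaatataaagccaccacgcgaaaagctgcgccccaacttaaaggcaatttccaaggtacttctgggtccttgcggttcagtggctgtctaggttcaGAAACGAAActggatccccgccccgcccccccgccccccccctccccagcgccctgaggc
Ifi203, chr1:173942493-173942742, minus strand: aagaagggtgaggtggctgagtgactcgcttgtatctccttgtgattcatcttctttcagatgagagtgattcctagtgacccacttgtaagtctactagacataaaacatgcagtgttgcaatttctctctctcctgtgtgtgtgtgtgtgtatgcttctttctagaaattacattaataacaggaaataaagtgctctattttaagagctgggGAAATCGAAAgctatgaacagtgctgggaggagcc
Mavs, chr2:131233813-131234062, plus strand: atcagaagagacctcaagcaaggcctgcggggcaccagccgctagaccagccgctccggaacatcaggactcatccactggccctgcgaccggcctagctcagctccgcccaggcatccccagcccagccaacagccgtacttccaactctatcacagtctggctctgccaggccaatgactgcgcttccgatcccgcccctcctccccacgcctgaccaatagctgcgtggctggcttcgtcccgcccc
G and C made up 53.6% of the Ddx58 stretch, which held 12 CpG dinucleotides. They made up 41.6% of the Ifi203 stretch, which held 2, and 65.2% of the Mavs stretch, which held 15. The windows not printed lay between in G and C: 50% with 11 CpG for Ifih1 and 60% with 12 for Eif2ak2. The other Ifi203 start site had 47.2% with 1.

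In GRCm38, on the GENCODE M21 annotation, 3 of the genes lie on chromosome 2: Ifih1 at chr2:62595798-62646255, Mavs at chr2:131234063-131248025 and Zbp1 at chr2:173206612-173218923. Ddx58 is at chr4:40203773-40239828, Dhx58 at chr11:100694884-100704271 and Eif2ak2 at chr17:78852564-78882573. Ifi204, at chr1:173747293-173766943, and Ifi203, at chr1:173920407-173942672, sit close together in the PYHIN gene cluster on the same strand. Reads of these genes could not always be placed on 1 gene. Of the 50-base words in the annotated transcripts, 20% of those of Ifi204 also occur in another gene, 14.8% in Ifi211 alone, and 12.4% of those of Ifi203, 8.85% in the pseudogene Ifi203-ps. Counts were whole in none of the 6 libraries for Ifi204 and in 1 for Ifi203, in 2 for Dhx58, in 3 each for Mavs, Zbp1 and Eif2ak2, in 5 for Ddx58 and in 6 for Ifih1. Mavs and Zbp1 share none of their words with another gene, so counts that are not whole do not track shared words alone. Exons of Ifi203 overlap Mndal on the same strand, exons of Dhx58 overlap its antisense gene Dhx58os, and exons of Eif2ak2 overlap Gm26637 and n-R5s29 on the other strand. Values of Ifi203 and Ifi204 are therefore uncertain, as are those of Dhx58 and Eif2ak2 if strand was not used in counting.

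Total counts were 14718368 to 19049613 per library, and 3 reads corresponded to 0.139 to 0.23 CPM (counts scaled to library size with TMM factors). Macrophage markers were abundant, with a summed level of 28100 to 35000 CPM for 10 genes in every library, most of it Lyz2 (22300 to 28000 CPM). With LTα1β2 over vehicle 7 rose and 1 fell. With LCL161 added to LTα1β2, 2 rose and 5 fell against LTα1β2 and 5 rose and 2 fell against vehicle. Of all genes tested, 12.8%, 10.6% and 18.4% rose and 10.6%, 15.1% and 21.1% fell in the same order. Markers of this list went in both directions. Mrc1 had 5.84 and 4.6 CPM with LCL161 plus LTα1β2, 28.3 and 30.6 CPM with LTα1β2, and 129 and 109 CPM in vehicle. In the same order, Adgre1 had 2840 and 2800, 2080 and 2050, and 1410 and 1410 CPM. Mertk had 602 and 609, 374 and 367, and 158 and 195 CPM. The summed level of 10 stromal markers was 691 and 729 CPM with LCL161 plus LTα1β2, 2560 and 3570 CPM with LTα1β2, and 9650 and 6480 CPM in vehicle. Of these 10 markers, 8 of the 9 tested fell in each comparison, and none was without reads. In bulk RNA, fewer cells of a type and less RNA per cell cannot be told apart, and the part of the stromal change in the results below was not tested. The 6 conventional dendritic cell markers summed to 125 and 109 CPM with LCL161 plus LTα1β2, 44.5 and 45.3 CPM with LTα1β2 and 21.2 and 26.8 CPM in vehicle, most of it Itgax. Of these 6, 2 rose with LTα1β2 over vehicle and 2 with LCL161 plus LTα1β2 over LTα1β2. With LCL161 plus LTα1β2 over vehicle 4 rose, and none fell in any comparison. Flt3 stayed at 2.33 CPM or below. Clec9a had 3.36 and 2.6 CPM with LCL161 plus LTα1β2, 3.96 and 5.24 CPM with LTα1β2, and 0 and 0.162 CPM in vehicle. The part of these markers in the results below was not tested. Of 10 T and NK cell markers, 8 were under 1 CPM in every library. B cell, neutrophil and plasmacytoid dendritic cell markers summed to 12.9 to 37.3, 197 to 444 and 256 to 783 CPM over the 6 libraries, and the last sum came mostly from Irf8 and Bst2, which macrophages also express.

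LTα1β2 alone raised 7 of the 8 sensor genes over vehicle, all but the adaptor Mavs. The share of all tested genes called higher in that comparison was 12.8% (23.4% in either direction). Scaling by total counts changed the balance of all genes from 2410 higher and 1991 lower to 1836 higher and 3729 lower in that comparison, from 1989 and 2843 to 1524 and 3924 for LCL161 plus LTα1β2 over LTα1β2, and from 3463 and 3968 to 2137 and 6561 for LCL161 plus LTα1β2 over vehicle. The median log2 fold change of the 8 was 1.98, against -0.039 over all genes tested. The increases ran from 1.88-fold for Ddx58 to 44.2-fold for Zbp1. LCL161 added to LTα1β2 raised 5 of the 8 over LTα1β2 alone, against 10.6% of all genes called higher (25.7% in either direction), led by Ifih1 (3.4-fold) and Ddx58 (2.41-fold). The median there was 0.60, against 0.004 over all genes. With LCL161 plus LTα1β2 against vehicle, 7 of 8 were higher, against 18.4% of all genes (39.5% in either direction), with a median of 2.73 against 0.047. None of the 8 was called lower in any of the 3 comparisons. A gene was called where edgeR's quasi-likelihood test gave a Benjamini-Hochberg adjusted p under 0.05 over all genes tested. The 3 comparisons share libraries, so their counts are not independent of each other. Leaving out 1 library in turn left 6 or 7 members higher for LTα1β2 over vehicle and 2 to 5 for LCL161 plus LTα1β2 over LTα1β2, the lowest count in each case without LTα1β2 replicate 2.

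**Figure D1:**
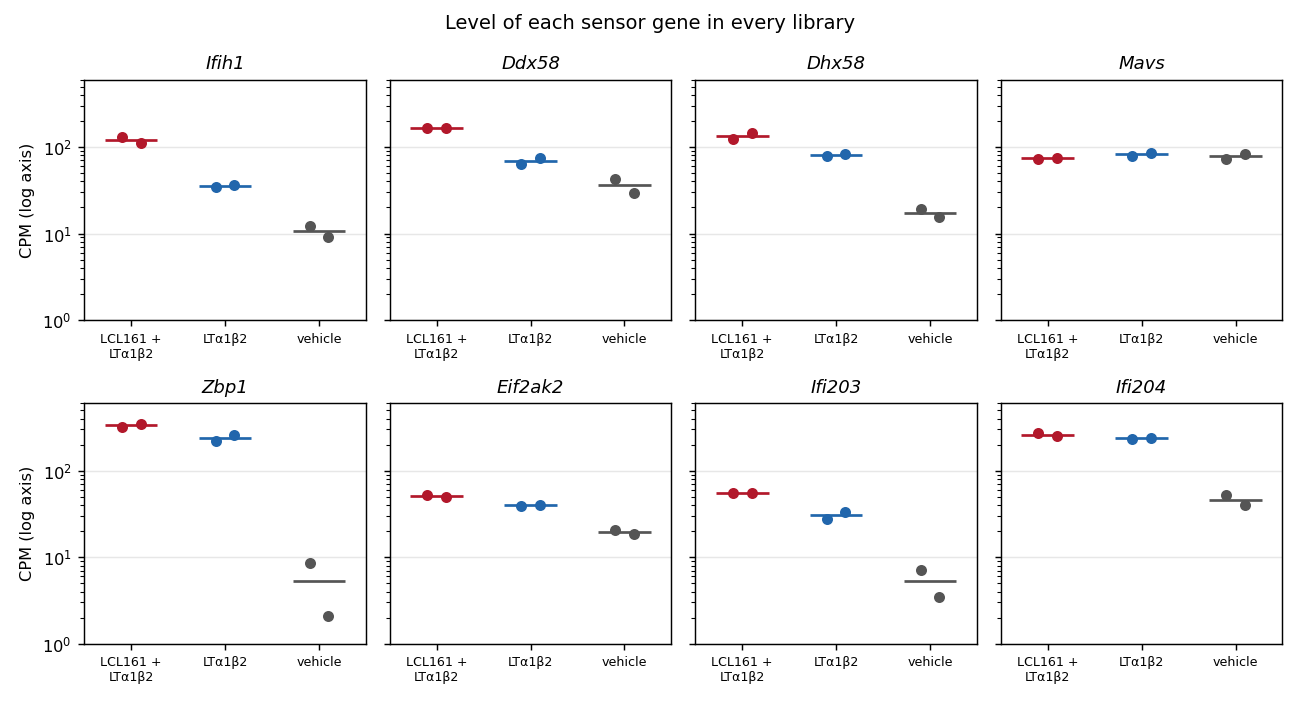
Level of each of the 8 sensor genes in CPM (log axis), with 1 point per library (replicate 1 left, replicate 2 right) and a line at the mean of each group of 2. Zbp1 had 323 and 349 CPM with LCL161 plus LTα1β2, 221 and 262 CPM with LTα1β2 and 8.61 and 2.11 CPM in vehicle, while the points of Mavs lie between 72 and 84.8 CPM in all 6 libraries.

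The helicase gene Ifih1 (MDA5) rose over LTα1β2 as well as over vehicle. It had 129 and 111 CPM with LCL161 plus LTα1β2, 34.2 and 36.5 CPM with LTα1β2, and 12.2 and 9.08 CPM in vehicle. No 2 groups overlapped. With 2 libraries a group, lack of overlap alone says little. Mavs, Zbp1 and Ifi204 had none for LCL161 plus LTα1β2 over LTα1β2 and were not called there. The log2 fold change of Ifih1 was 1.73 (SE 0.16, edgeR adjusted p = 0.000324) for LTα1β2 over vehicle. For LCL161 plus LTα1β2 over LTα1β2 it was 1.76 (SE 0.15, edgeR adjusted p = 0.000263). For LCL161 plus LTα1β2 over vehicle it was 3.49 (SE 0.17, edgeR adjusted p = 4.43e-06), an 11.2-fold difference. All 16 alternative settings called Ifih1 higher in all 3 comparisons.

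Ddx58 (RIG-I), the other signalling helicase, had smaller changes than Ifih1 in each comparison, a difference that was not tested. Its levels were 164 and 167 CPM with LCL161 plus LTα1β2, 63.1 and 74.4 CPM with LTα1β2, and 43.2 and 29.8 CPM in vehicle. The groups did not overlap. The log2 fold change was 0.91 (SE 0.18, edgeR adjusted p = 0.00898) for LTα1β2 over vehicle and 1.27 (SE 0.17, edgeR adjusted p = 0.00181) for LCL161 plus LTα1β2 over LTα1β2. The call for LTα1β2 over vehicle was lost without LTα1β2 replicate 2, where the log2 change was 0.78 and the edgeR adjusted p 0.0612. For LCL161 plus LTα1β2 over vehicle the log2 change was 2.18 (SE 0.18, edgeR adjusted p = 5.68e-05).

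Dhx58 (LGP2), the helicase relative without signalling domains, rose in all 3 comparisons. It had 123 and 145 CPM with LCL161 plus LTα1β2, 79.5 and 82.3 CPM with LTα1β2, and 19 and 15.4 CPM in vehicle. The log2 fold change was 2.23 (SE 0.14, edgeR adjusted p = 4.08e-05) for LTα1β2 over vehicle, a 4.69-fold increase, and 0.73 (SE 0.13, edgeR adjusted p = 0.00646) for LCL161 plus LTα1β2 over LTα1β2. The second call was lost without LTα1β2 replicate 2, with an edgeR adjusted p of 0.0555 at a log2 change of 0.71. The antisense gene Dhx58os shares 2.9% of the 50-base words of Dhx58, and reads in that shared stretch cannot be told apart without strand. Dhx58os had 10.4 and 11 CPM with LCL161 plus LTα1β2, 6 and 7.7 CPM with LTα1β2 and 1.34 and 1.13 CPM in vehicle. It was called higher in LTα1β2 over vehicle (log2 change 2.46, edgeR adjusted p = 0.000267) and in LCL161 plus LTα1β2 over LTα1β2 (0.63, edgeR adjusted p = 0.0402).

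Mavs, the adaptor that the helicases share, did not pass the test in any comparison. It had 73.4 and 75.2 CPM with LCL161 plus LTα1β2, 79.6 and 84.8 CPM with LTα1β2, and 72 and 84.2 CPM in vehicle. Only the LCL161 plus LTα1β2 libraries and the LTα1β2 libraries did not overlap. The log2 change was 0.074 for LTα1β2 over vehicle, with a 95% interval of -0.18 to 0.33. It was -0.15 (95% interval -0.40 to 0.11) for LCL161 plus LTα1β2 over LTα1β2 and -0.072 (-0.33 to 0.18) for LCL161 plus LTα1β2 over vehicle. The edgeR adjusted p in these 3 comparisons was 0.681, 0.349 and 0.626. Scaling by total counts, which moved the median of all genes by -0.19, -0.121 and -0.311 in the same order, turned the first value to -0.11 and made the third -0.38 with an edgeR adjusted p of 0.0174. Without vehicle replicate 1 the first value was -0.041.

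**Figure D2:**
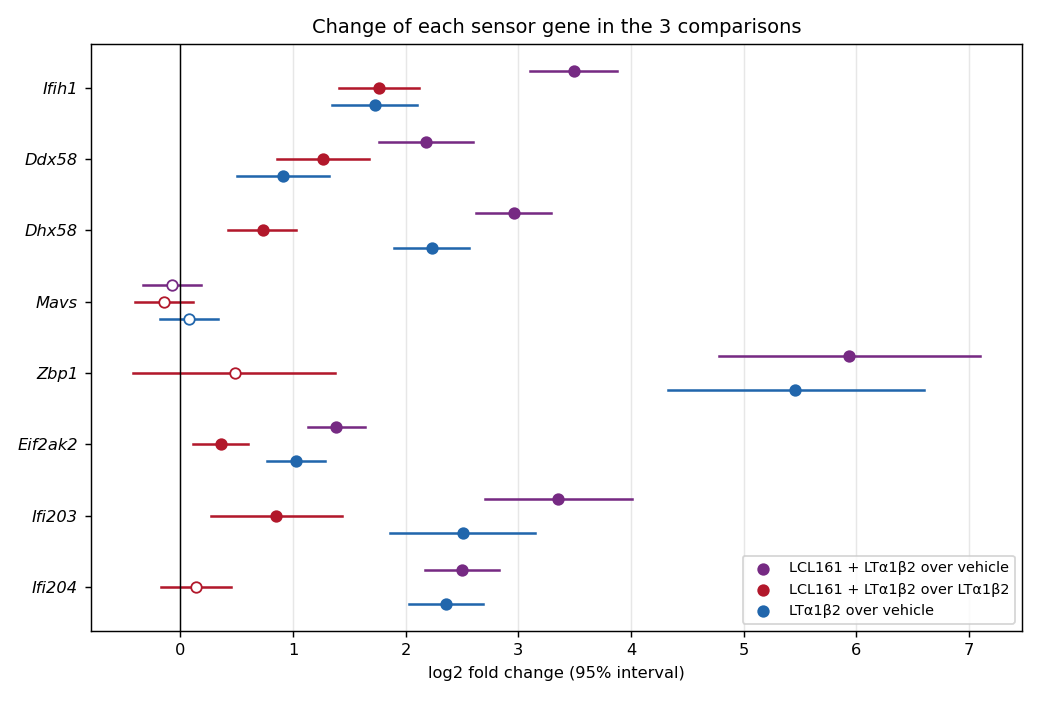
Log2 fold change of each sensor gene (points) with its 95% interval (lines) for LCL161 plus LTα1β2 over vehicle, LCL161 plus LTα1β2 over LTα1β2, and LTα1β2 over vehicle, filled where the gene was called. The intervals of Mavs include 0 in all 3 comparisons, and Zbp1 and Ifi204 have open points for LCL161 plus LTα1β2 over LTα1β2 at 0.48 and 0.14.

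Set side by side within each library, the make-up of the 3 helicase transcripts differed between the groups. These shares are of counts per kilobase of annotated exon, so they do not depend on how libraries are scaled. They do depend on the length taken for each gene, and only this length was used for them. With the longest transcript as length, mean levels in vehicle were 9.42 CPM per kilobase for Ddx58 and 7.14 for Dhx58, against 5.18 and 5.26. With LCL161 plus LTα1β2 they were 42.8 for Ddx58 and 24.3 for Mavs, against 23.5 and 22.2. Ifih1 made up 20.7% and 16.6% of the 3 with LCL161 plus LTα1β2, 11.2% and 11.1% with LTα1β2, and 11.1% in each vehicle library. Dhx58 made up 48.9% and 54.3% with LCL161 plus LTα1β2, 64.9% and 62.6% with LTα1β2, and 43.2% and 46.9% in vehicle. The LTα1β2 libraries thus held the highest shares of Dhx58, and the LCL161 plus LTα1β2 libraries the highest of Ifih1. Ddx58 made up 30.4% and 29.1% with LCL161 plus LTα1β2, 23.9% and 26.3% with LTα1β2, and 45.6% and 42% in vehicle. The ratio of the signalling helicases together (Ddx58 plus Ifih1) to their adaptor Mavs, per kilobase, was 1.79 and 1.66 with LCL161 plus LTα1β2, 0.552 and 0.592 with LTα1β2, and 0.354 and 0.212 in vehicle. With 2 libraries a group, these ratios were not tested.

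**Figure D3:**
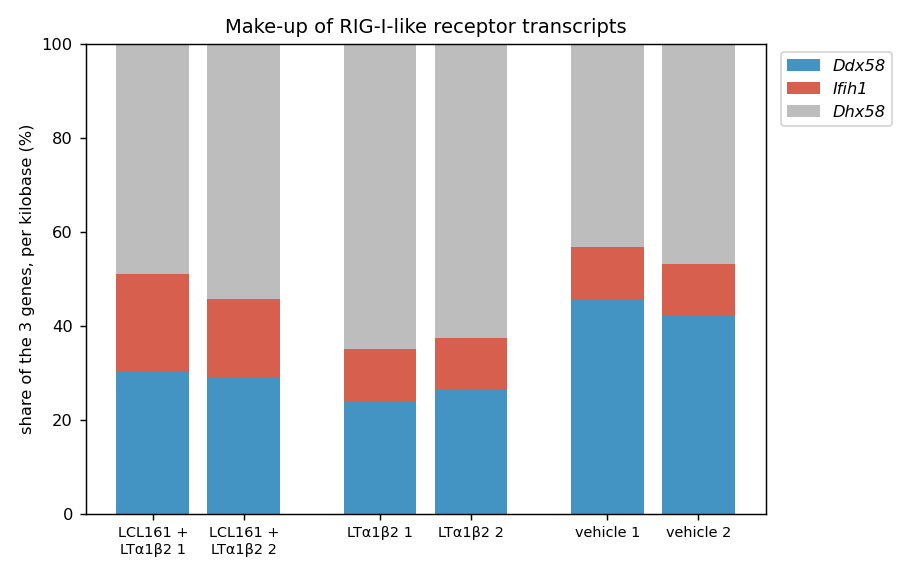
Share of Ddx58, Ifih1 and Dhx58 in the sum of their counts per kilobase of annotated exon (%), with 1 stacked bar per library. The Ifih1 part is 20.7% and 16.6% with LCL161 plus LTα1β2, and 11.1% or 11.2% in the other 4 libraries.

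Zbp1, the Z-nucleic acid sensor, had the largest increase of the 8 with LTα1β2. It had 4430.5 and 4552.75 reads with LCL161 plus LTα1β2, 3468 and 4894.75 reads with LTα1β2, and 186 and 39 reads in vehicle. That was 323 and 349 CPM with LCL161 plus LTα1β2, 221 and 262 CPM with LTα1β2, and 8.61 and 2.11 CPM in vehicle. The vehicle libraries differed 4.08-fold, a larger gap than for all but 0.914% of the genes tested. The log2 fold change for LTα1β2 over vehicle was 5.46 (SE 0.49, edgeR adjusted p = 0.000262), and 4.81 without vehicle replicate 2 and 6.83 without vehicle replicate 1. For LCL161 plus LTα1β2 over vehicle it was 5.94 (SE 0.50, edgeR adjusted p = 6.19e-05), and 5.24 and 7.26 without those libraries. Both LCL161 plus LTα1β2 libraries lay above both LTα1β2 libraries, but the log2 change of 0.48 (95% interval -0.42 to 1.37) did not pass, with an edgeR adjusted p of 0.386. It passed when only these 2 groups were fitted, with a log2 change of 0.49 and an edgeR adjusted p of 0.0245, and without either vehicle library (0.0429 without replicate 1 and 0.0442 without replicate 2).

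Eif2ak2 (PKR) had the smallest increase over vehicle among the 7 genes that rose with LCL161 plus LTα1β2. It had 51.9 and 49.9 CPM with LCL161 plus LTα1β2, 39.6 and 39.9 CPM with LTα1β2, and 20.6 and 18.4 CPM in vehicle. The libraries of a group lay close together and the groups did not overlap. The log2 fold change was 1.03 (SE 0.11, edgeR adjusted p = 0.000634) for LTα1β2 over vehicle and 1.38 (SE 0.11, edgeR adjusted p = 4.73e-05) for LCL161 plus LTα1β2 over vehicle. For LCL161 plus LTα1β2 over LTα1β2 it was 0.36 (SE 0.11) with an edgeR adjusted p of 0.046, and only 5 of 16 alternatives kept that call. The edgeR adjusted p was 0.15 and 0.118 without LCL161 plus LTα1β2 replicates 1 and 2, 0.2 and 0.233 without LTα1β2 replicates 1 and 2, and 0.113 and 0.115 without vehicle replicates 1 and 2. Scaling by total counts gave 0.18 and DESeq2 0.0673.

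The PYHIN genes Ifi203 and Ifi204 both rose with LTα1β2 over vehicle, and Ifi203 alone of the pair was called with LCL161 added. Ifi203 had 55.4 and 55.1 CPM with LCL161 plus LTα1β2, 28 and 33.4 CPM with LTα1β2, and 7.18 and 3.51 CPM in vehicle. Its log2 fold change was 2.51 (SE 0.28, edgeR adjusted p = 0.000764) for LTα1β2 over vehicle, 0.85 (SE 0.25, edgeR adjusted p = 0.0419) for LCL161 plus LTα1β2 over LTα1β2, and 3.35 (SE 0.28, edgeR adjusted p = 6.25e-05) for LCL161 plus LTα1β2 over vehicle. The middle call was lost without LCL161 plus LTα1β2 replicates 1 and 2 (edgeR adjusted p = 0.0753 each), without LTα1β2 replicates 1 and 2 (0.178 and 0.135), under scaling by total counts (0.0699) and in a robust fit (0.0568). Ifi204 had 274 and 250 CPM with LCL161 plus LTα1β2, 234 and 242 CPM with LTα1β2, and 52.5 and 40.2 CPM in vehicle. Its log2 change was 2.36 (SE 0.14, edgeR adjusted p = 3.12e-05) for LTα1β2 over vehicle. For LCL161 plus LTα1β2 over LTα1β2 it was 0.14 (95% interval -0.17 to 0.45, edgeR adjusted p = 0.474), although the libraries did not overlap, and -0.0029 with no filter beyond 1 read. Over vehicle, LCL161 plus LTα1β2 gave 2.5 (SE 0.14, edgeR adjusted p = 9.46e-06). The difference between the 2 genes was not tested. The ratio of Ifi203 to Ifi204 per kilobase was 0.107 and 0.117 with LCL161 plus LTα1β2, 0.0633 and 0.0732 with LTα1β2, and 0.0725 and 0.0463 in vehicle.

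Genes that share sequence or exons with this pair were looked at beside it. Mndal, whose exons overlap Ifi203, had 91.6 and 87.8 CPM with LCL161 plus LTα1β2, 45.9 and 52.1 CPM with LTα1β2, and 11.7 and 8.16 CPM in vehicle. Ifi211, which shares words with Ifi204, had 347 and 323 CPM with LCL161 plus LTα1β2, 129 and 141 CPM with LTα1β2, and 25.9 and 15.6 CPM in vehicle. The log2 change of Ifi211 for LCL161 plus LTα1β2 over LTα1β2 was 1.31 (SE 0.20, edgeR adjusted p = 0.00306), against 0.14 for Ifi204. Ifi203-ps was called higher with LTα1β2 over vehicle (log2 change 2.48, edgeR adjusted p = 0.0236) and not with LCL161 plus LTα1β2 over LTα1β2 (0.35, edgeR adjusted p = 0.628), where its groups overlapped. The sources used here do not state how reads that match both genes were divided.

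Compared per kilobase of exon, which allows levels of different genes to be ranked, the order of the 8 genes differed between the groups. With LCL161 plus LTα1β2, Zbp1 stood first at 95.2 ± 5.10 CPM per kilobase (SD, n = 2), followed by Ifi204 at 73.5 ± 4.80, Dhx58 at 40.9 ± 4.87, Ddx58 at 23.5 ± 0.272 and Mavs at 22.2 ± 0.381. Ifih1 (14.7 ± 1.63), Eif2ak2 (9.95 ± 0.280) and Ifi203 (8.24 ± 0.0254) came last, and no neighbours in that order overlapped. With LTα1β2, Zbp1 (68.4 ± 8.09) and Ifi204 (66.9 ± 1.62) overlapped at the top, as did Dhx58 (24.7 ± 0.598) and Mavs (24.6 ± 1.11). Ddx58 (9.75 ± 1.13) and Eif2ak2 (7.78 ± 0.0354) followed, with Ifi203 (4.58 ± 0.576) and Ifih1 (4.33 ± 0.196) overlapping at the bottom. In vehicle, Mavs stood first at 23.4 ± 2.57 CPM per kilobase, above Ifi204 at 13 ± 2.45. Dhx58 (5.26 ± 0.783) and Ddx58 (5.18 ± 1.35) overlapped, Eif2ak2 had 3.81 ± 0.294, Zbp1 (1.52 ± 1.30) overlapped Ifih1 (1.30 ± 0.272), and Ifi203 was lowest at 0.797 ± 0.386. With the longest transcript as the length, Ifi204 stood above Zbp1 with LCL161 plus LTα1β2 (114 against 101 CPM per kilobase) and with LTα1β2 (104 against 72.6). That length also put Ifi203 above Eif2ak2 with LCL161 plus LTα1β2 (14.7 against 11.8), and in vehicle Ddx58 above Dhx58 (9.42 against 7.14) and Ifih1 above Zbp1 (1.95 against 1.61).

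**Figure D4:**
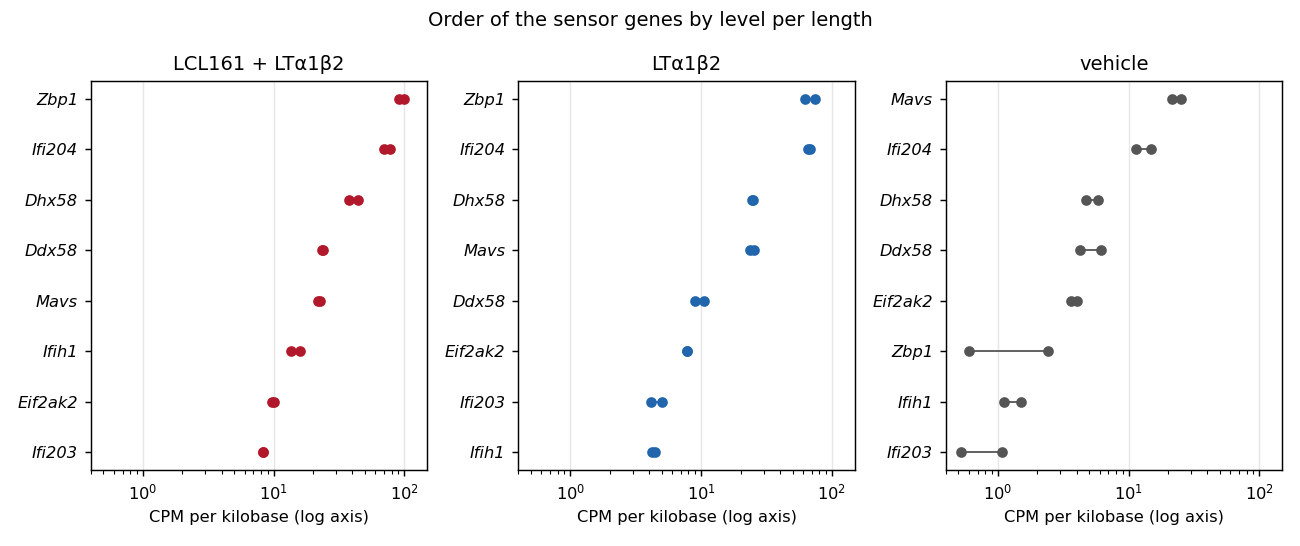
Sensor genes ordered by level in CPM per kilobase of exon (log axis) in each group, with 1 point per library joined by a line. Zbp1 stands first at 91.6 and 98.8 with LCL161 plus LTα1β2 and sixth in vehicle at 2.44 and 0.597, where Mavs stands first.

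The vehicle libraries were not alike for these genes. All 7 genes other than Mavs were higher in vehicle replicate 1 than in replicate 2, by 1.12-fold for Eif2ak2 to 2.04-fold for Ifi203 and 4.08-fold for Zbp1, whereas 51.5% of all tested genes were higher there. All 8 were lower in LTα1β2 replicate 1 than in replicate 2, with ratios of 0.836 to 0.994, where 50.2% of all genes were higher. With LCL161 plus LTα1β2, 4 of the 8 were higher in replicate 1. The median gap between the libraries of a group over all genes was 0.22 on the log2 scale with LCL161 plus LTα1β2, 0.20 with LTα1β2 and 0.19 in vehicle, against 2.03 for Zbp1 and 1.03 for Ifi203 in vehicle. The stromal marker sum was also higher in vehicle replicate 1 (9650 CPM) than in replicate 2 (6480 CPM), and its part in this difference was not tested.

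For each member, the gene with the most similar pattern was sought among 10129 genes by the distance between log2 CPM profiles over the 6 libraries, each centred on its own mean. The nearest were Ifi214 to Ifih1 (distance 0.499), Lrrc8c to Ddx58 (0.376), Apobec3 to Dhx58 (0.273), Mrps24 to Mavs (0.0846), Gbp3 to Zbp1 (0.607), Irf9 to Eif2ak2 (0.134), Xaf1 to Ifi203 (0.265) and Nmi to Ifi204 (0.218). The median distance of all candidates was 0.659 for Mavs and 1.60 to 7.14 for the others. Among the members themselves, Dhx58 and Ifi204 were nearest to each other at 0.67, and the member nearest to Zbp1, Ifi203, was 3.56 away.

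The other genes of the pathways were counted from lists chosen by role, with earlier results of these data known. Of all genes tested, 12.8% were higher and 10.6% lower with LTα1β2 over vehicle, 10.6% higher and 15.1% lower with LCL161 plus LTα1β2 over LTα1β2, and 18.4% higher and 21.1% lower with LCL161 plus LTα1β2 over vehicle. The list of DNA sensors and further PYHIN genes had 11 of its 12 genes tested. Words shared within the PYHIN family, as found for Ifi203 and Ifi204, were not measured for the listed genes, so their calls may not be separate. With LTα1β2 over vehicle 10 rose and none fell (median log2 change 2.30). With LCL161 plus LTα1β2 over LTα1β2 9 rose and none fell (median 1.49), and over vehicle all 11 rose (median 3.23). With a library left out, 7 to 9 rose in the second of these and the other counts did not change. Aim2, the inflammasome DNA sensor, had 44.4 and 42.4 CPM with LCL161 plus LTα1β2, 20.7 and 22.8 CPM with LTα1β2, and 8.19 and 10.7 CPM in vehicle. Ifi205, another PYHIN gene, had 509 and 504 CPM with LCL161 plus LTα1β2, 48.8 and 57.1 CPM with LTα1β2, and 7.68 and 3.35 CPM in vehicle, and its log2 change was 3.26 (SE 0.28, edgeR adjusted p = 0.000243) for LCL161 plus LTα1β2 over LTα1β2.

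The DNA sensor Cgas and its adaptor Tmem173 (STING) passed in different steps. Cgas, which makes the second messenger that activates STING, had 16.4 and 16.8 CPM with LCL161 plus LTα1β2, 7.98 and 6.74 CPM with LTα1β2, and 6.2 and 5.84 CPM in vehicle. Its log2 change was 1.18 (SE 0.15, edgeR adjusted p = 0.00132) for LCL161 plus LTα1β2 over LTα1β2 and 0.28 (edgeR adjusted p = 0.239) for LTα1β2 over vehicle. Tmem173 had 110 and 120 CPM with LCL161 plus LTα1β2, 106 and 112 CPM with LTα1β2, and 26.3 and 30.4 CPM in vehicle. Its log2 change was 1.95 (SE 0.11, edgeR adjusted p = 2.93e-05) for LTα1β2 over vehicle and 0.07 (edgeR adjusted p = 0.661) for LCL161 plus LTα1β2 over LTα1β2. The difference between the steps was not tested for either gene.

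Of 15 cofactors of RNA sensing, 6 rose and Ddx3x and Dhx15 fell with LTα1β2 over vehicle (median log2 change 0.19), against 12.8% and 10.6% of all genes. Scaling by total counts gave 5 higher and 5 lower. The ubiquitin ligases of RIG-I, Trim25 (log2 change 0.91, SE 0.10, edgeR adjusted p = 0.000741) and Rnf135 (0.75, SE 0.15, edgeR adjusted p = 0.011), were among the 6, with Zc3hav1, Ddx60, Dhx36 and Nod2. Calls of Trim25, Zc3hav1 and Ddx60 held with each library left out. Those of Rnf135 (highest edgeR adjusted p 0.103, without vehicle replicate 1), Dhx36 (0.148, without vehicle replicate 2), Nod2 (0.192, without vehicle replicate 1), Ddx3x (0.2, without LTα1β2 replicate 1) and Dhx15 (0.155, without vehicle replicate 1) did not. With LCL161 plus LTα1β2 over LTα1β2, Ddx60 (log2 change 1.25) and Zc3hav1 (0.93) rose and Hmgb1 fell (-0.35), and the call of Hmgb1 was lost without any of the libraries compared (highest edgeR adjusted p 0.091, without LTα1β2 replicate 2).

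Of 16 genes of the adaptor complex and its kinases, 6 rose with LTα1β2 over vehicle (median 0.32), 9 rose with LCL161 plus LTα1β2 over LTα1β2 (median 0.44), and 12 rose and Irf3 fell with LCL161 plus LTα1β2 over vehicle (median 1.11). Beside these counts, 12.8%, 10.6% and 18.4% of all genes were higher. The 9 became 5 to 8 with a library left out, and 5 without LTα1β2 replicate 1 or 2, where Tbk1, Ikbke, Ikbkg and Azi2 lost their calls. Scaling by total counts gave 5 higher and 2 lower for LTα1β2 over vehicle and 6 higher and 2 lower for LCL161 plus LTα1β2 over LTα1β2. The call of Irf3, a transcription factor that these kinases activate, was lost in 10 of 16 alternatives, with an edgeR adjusted p of 0.176 without vehicle replicate 2. Tank, a scaffold of TBK1, had 193 and 195 CPM with LCL161 plus LTα1β2, 35.2 and 41.1 CPM with LTα1β2, and 42.9 and 43.6 CPM in vehicle. Its log2 change was 2.35 (SE 0.11, edgeR adjusted p = 2.19e-05) for LCL161 plus LTα1β2 over LTα1β2. The kinase gene Tbk1 rose with LTα1β2 over vehicle by 0.72 on the log2 scale (SE 0.09, edgeR adjusted p = 0.00149) and Ikbke, which encodes IKKε, by 0.76 (SE 0.11, edgeR adjusted p = 0.00279). Their further changes with LCL161, 0.38 and 0.39, were called with all 6 libraries but lost when libraries were left out (highest edgeR adjusted p 0.178 for Tbk1, without LTα1β2 replicate 2, and 0.286 for Ikbke, without LCL161 plus LTα1β2 replicate 2).

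Among 16 genes known to dampen RNA sensing, 3 rose and Nlrc3 fell with LTα1β2 over vehicle, and 3 rose and 3 fell with LCL161 plus LTα1β2 over LTα1β2 (medians 0.20 and -0.14). The first count is near the 23.4% of all genes called in that comparison, and 25.7% were called in the second. With LCL161 plus LTα1β2 over vehicle 4 rose and 5 fell (median -0.047), beside 18.4% of all genes higher and 21.1% lower. Scaling by total counts gave 3 higher and 3 lower for LTα1β2 over vehicle. The 3 that rose with LTα1β2 were Cyld, Pcbp1 and Otud5, and the 3 that rose with LCL161 added were Tax1bp1, Cyld and Atg5, while Nlrx1, Smurf2 and Mfn2 fell. With a library left out, the counts for LCL161 plus LTα1β2 over LTα1β2 ran from 0 to 3 higher and from 1 to 5 lower. Without LTα1β2 replicate 2, the edgeR adjusted p for that comparison was 0.0855 for Tax1bp1, 0.11 for Cyld, 0.167 for Atg5, 0.0811 for Smurf2 and 0.143 for Mfn2. For LTα1β2 over vehicle it was 0.0661 for Pcbp1 without vehicle replicate 1 and 0.0985 for Otud5 without vehicle replicate 2. Nlrx1, a mitochondrial protein described as an inhibitor of MAVS, had 14.5 and 14.9 CPM with LCL161 plus LTα1β2, 25.8 and 23.8 CPM with LTα1β2, and 19.1 and 22.5 CPM in vehicle. It fell by 0.76 on the log2 scale for LCL161 plus LTα1β2 over LTα1β2 (SE 0.13, edgeR adjusted p = 0.006). Of 16 genes of nucleic acid editing and decay, 5 rose with LTα1β2 over vehicle (median 0.30), Adarb1 was among those that fell, and with LCL161 plus LTα1β2 over LTα1β2 4 rose and Samhd1 and Rnaseh2a fell (median 0.19). Beside these counts, 12.8% and 10.6% of all genes were higher and 10.6% and 15.1% lower. The call of Rnaseh2a was lost without LTα1β2 replicate 2 (edgeR adjusted p = 0.0704). The near-identical genes Rnaset2a and Rnaset2b, which encode a ribonuclease, were among those that rose in both. Their log2 changes were 0.96 and 0.94, then 1.21 and 1.2, and the pair may be 1 signal counted under both names. Adar, which edits double-stranded RNA, had 148 and 157 CPM with LCL161 plus LTα1β2, 119 and 134 CPM with LTα1β2, and 48.5 and 44.9 CPM in vehicle. Samhd1, a nucleotide hydrolase, had 727 and 729 CPM with LCL161 plus LTα1β2, 1020 and 976 CPM with LTα1β2, and 87.2 and 88 CPM in vehicle, and was called higher in LTα1β2 over vehicle and lower in LCL161 plus LTα1β2 over LTα1β2 (log2 changes 3.51 and -0.46). Trex1, a DNA exonuclease, rose in both steps (2.15 and 1.02). The call of Adarb1 for LTα1β2 over vehicle was lost without vehicle replicate 1, with an edgeR adjusted p of 0.276.

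Around PKR, 14 genes of the eIF2 pathway were tested. With LTα1β2 over vehicle Eif2ak3, Ppp1r15b and Eif2ak1 rose and Eif2s2 and Eif2s1 fell (median -0.054), beside 12.8% of all genes higher and 10.6% lower. None of these calls held with each library left out, and scaling by total counts gave 1 higher and 6 lower (median -0.25). The highest edgeR adjusted p was 0.0706 for Eif2ak3 and 0.23 for Eif2ak1 without vehicle replicate 1, 0.152 for Ppp1r15b without vehicle replicate 2, 0.184 for Eif2s2 without vehicle replicate 1 and 0.209 for Eif2s1 without LTα1β2 replicate 1. With LCL161 plus LTα1β2 over LTα1β2, Ppp1r15a and Ddit3 rose, beside 10.6% of all genes. Ppp1r15a, a phosphatase subunit that reverses eIF2α phosphorylation, had 129 and 161 CPM with LCL161 plus LTα1β2, 44 and 49.2 CPM with LTα1β2, and 56.5 and 62.3 CPM in vehicle (log2 change over LTα1β2 1.64, SE 0.14, edgeR adjusted p = 0.000218). The call of Ddit3 was lost in 9 alternatives, with an edgeR adjusted p of 0.242 without LCL161 plus LTα1β2 replicate 2.

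Among 9 partners of Zbp1 in necroptosis and the inflammasome, 5 rose and none fell with LTα1β2 over vehicle, beside 12.8% of all genes higher. Nlrp3 and Casp1 rose and Ripk3 fell with LCL161 plus LTα1β2 over LTα1β2, beside 10.6% of all genes higher and 15.1% lower. Mlkl, the executor of necroptosis, had 79.8 and 78.9 CPM with LCL161 plus LTα1β2, 54.9 and 64.7 CPM with LTα1β2, and 19.8 and 15.5 CPM in vehicle. Ripk3, the kinase that ZBP1 binds, had 22.3 and 25 CPM with LCL161 plus LTα1β2, 46.5 and 49.8 CPM with LTα1β2, and 42.7 and 42.6 CPM in vehicle. The change of Mlkl for LCL161 plus LTα1β2 over LTα1β2 did not pass (log2 change 0.41, edgeR adjusted p = 0.0706). Ripk3 fell by 1.03 on the log2 scale for LCL161 plus LTα1β2 over LTα1β2 (SE 0.11, edgeR adjusted p = 0.000635), and all 16 alternatives called it. Ripk1, also among the 5 that rose with LTα1β2, lost its call with each compared library left out (highest edgeR adjusted p 0.191, without vehicle replicate 1). The others were Casp1, Pycard, Mlkl and Nlrp3.

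**Figure D5:**
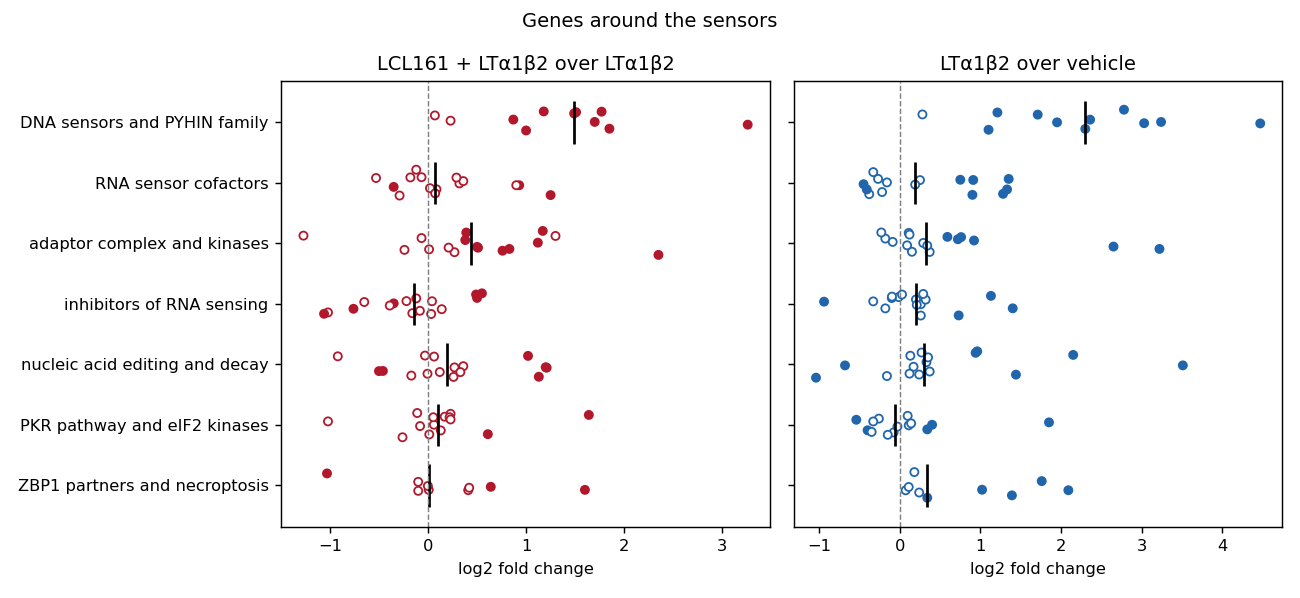
Log2 fold change of each tested gene in 7 lists around the sensors, for LCL161 plus LTα1β2 over LTα1β2 (left) and LTα1β2 over vehicle (right), filled where called, with a black line at the list's median. The median of the DNA sensor and PYHIN list is 1.49 on the left and 2.30 on the right, and the medians of the other lists lie between -0.14 and 0.44 on the left and between -0.054 and 0.34 on the right.

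Interferon genes, some of them known targets of signalling through Mavs, had few reads. Of 21 type I, type II and type III interferon genes listed, 2 had no reads in any library, and Ifnb1, the interferon beta gene, was the one that passed the filter. Ifnb1 had 10 and 13 reads with LCL161 plus LTα1β2, 3 and 5 reads with LTα1β2, and 1 and 2 reads in vehicle. Its ratio for LCL161 plus LTα1β2 over vehicle was 11.5 with an exact 95% interval of 3.47 to 59.8, for LCL161 plus LTα1β2 over LTα1β2 it was 3.7 with an interval of 1.6 to 9.58, and for LTα1β2 over vehicle 3.1 with an interval of 0.745 to 18.2. These intervals cover counting error only. Neither of the last 2 comparisons passed, with edgeR adjusted p of 0.0632 and 0.231. The call of Ifnb1 for LCL161 plus LTα1β2 over vehicle (edgeR adjusted p = 0.00744) was lost without vehicle replicate 1 (0.111), vehicle replicate 2 (0.0554) and LCL161 plus LTα1β2 replicate 2 (0.0747). Ifnl3, an interferon lambda gene with a near-identical copy in Ifnl2, had 7.5 and 8.5 reads with LCL161 plus LTα1β2 and none in the other 4 libraries. With 3 reads for the group taken as the limit of a count of 0, the ratio was 6.87 over LTα1β2 and 8 over vehicle. These ratios leave out the counting error of the 16 reads with LCL161 plus LTα1β2, so they are not lower limits. Ifng, the interferon gamma gene, had 7 reads over all 6 libraries.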

How the data were processed

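Mouse bone marrow-derived macrophages were sequenced in 6 libraries, grouped by their titles. The authors deposited unnormalised expected counts for each gene, of which 66.6% of the non-zero values are whole. Per the submitters' processing notes, the authors used STAR 2.7.3a and DESeq2 1.26.0 with the GRCm38 genome. How reads were counted, with which annotation, strand setting and rule for several matches, is not stated in the sources used here. Counts were rounded to whole numbers. The filter filterByExpr (minimum count 10) left 18812 of 55023 genes. The 3 comparisons were fitted in edgeR 4.0.16 (R 4.3.3) over all 6 libraries, 1 mean per group, with TMM factors (0.874 to 1.15) and the quasi-likelihood F test, two-sided, with Benjamini-Hochberg adjustment and calls under 0.05. The fit had 3 residual and 4.59 prior degrees of freedom and a biological coefficient of variation of 13.6%. The SE was taken as the absolute log2 change over the root of F, and 95% intervals use it with 7.59 degrees of freedom. Replicates differed beyond counting error: chi-square over its degrees of freedom was 12.1 for LCL161 plus LTα1β2, 8.34 for LTα1β2 and 16 for vehicle.

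The members and lists were chosen with earlier results of these data known. Named genes are the members, their partners, called list genes (all where 5 or fewer moved in a direction, otherwise the 4 with the smallest p) and the gene nearest to each member with a mean of at least 5 CPM, not all of which are given, and 1 gene of a list is not reported here. Ifi203-ps, Ifi211, Dhx58os, Ifnl3 and Ifng were added after their values were seen. Lengths, overlaps and 50-base words come from GENCODE M21 on GRCm38, matched by symbol for all 8 members, and promoters from RefSeq. Alternatives were relative log expression factors, total-count scaling, DESeq2 1.42.0, limma 3.58.1 voom, filters of at least 1 CPM in 2 libraries or of 1 read only, a fit of the 2 groups alone, a robust fit, a replicate block, edgeR's newer quasi-likelihood method, and leaving out each library.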

Additional observations from a re-analysis of the deposited data

How the results depend on the processing

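The count of members called was 7 of 8 for LTα1β2 over vehicle and for LCL161 plus LTα1β2 over vehicle, and 5 for LCL161 plus LTα1β2 over LTα1β2. With each library left out it ran from 6 to 7, from 7 to 7 and from 2 to 5, and it was 3 in the last comparison under total-count scaling and 3 with the replicate block. A lone library left in a group is then assumed to vary like the other groups. Over all genes, 4401, 7431 and 4832 were called in those comparisons, and with a library left out 1930 to 4933, 4885 to 7285 and 2332 to 4604. Among the members, their nearest genes and the list genes in the comparisons for which the rule names them, the values that changed sign were Mavs for LTα1β2 over vehicle (-0.11 under total-count scaling and -0.041 to 0.2 with a library left out), Ifi204 for LCL161 plus LTα1β2 over LTα1β2 (-0.0029 with no filter beyond 1 read), Ripk3 for LTα1β2 over vehicle (-0.015 under total-count scaling), Tmem173 for LCL161 plus LTα1β2 over LTα1β2 (-0.053 under total-count scaling, -0.068 with no filter beyond 1 read, and -0.06 to 0.11 with a library left out) and Mrps24 (-0.062 for LTα1β2 over vehicle under total-count scaling, and for LCL161 plus LTα1β2 over vehicle 0.036 with at least 1 CPM in 2 libraries and -0.15 to 0.03 with a library left out). None of these was called with all libraries. Over the same genes and alternatives, 150 calls were lost and 13 gained. Over all 294 values of the listed genes, 62 took both signs across the alternatives, 0 of them called with all libraries, and 187 calls were lost and 110 gained. With the longest transcript as length, 21 levels per kilobase moved beyond 1 SD. The titles number the replicates alike but do not say that a number marks a shared animal or day. Deviations of same-numbered libraries correlated, across genes, at 0.138 (LTα1β2 and vehicle), 0.157 (LCL161 plus LTα1β2 and LTα1β2) and 0.0941 (LCL161 plus LTα1β2 and vehicle). With the replicate block, the edgeR adjusted p for LCL161 plus LTα1β2 over LTα1β2 was 0.0585 for Eif2ak2 and 0.0594 for Ifi203, and no other member's call changed.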
